A study of Homo sapiens with 6 samples.

Results

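Genes of lipid peroxidation and ferroptosis were followed in 12Z, an immortalised human line derived from endometriosis, after exposure to an extract of myrrh. The 8 genes were chosen by name: ACSL4, LPCAT3, GPX4, AIFM2, GCH1, NCOA4, STEAP3 and CISD1. All 8 had a row among the 60419 genes listed in the deposited tables, and all 8 were among the 16395 genes with enough counts to be tested.

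Ferroptosis is an iron-dependent form of cell death in which polyunsaturated phospholipids of the membranes are oxidised to peroxides. Cells supply the substrate by loading long polyunsaturated fatty acids into phospholipids, and hold the peroxides in check with glutathione, reduced ubiquinone and tetrahydrobiopterin. Iron released from ferritin or taken up with transferrin drives the reaction, and iron-rich endometriotic lesions have made this form of cell death a subject of study in endometriosis.

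The Myrrh group was treated for 12 h with Myrrh extract at 100 µg/mL in DMSO, and the DMSO group received the vehicle alone. Both groups were wild-type 12Z cells kept in medium with 10% charcoal-stripped serum, and each had 3 RNA sequencing libraries, made from 1.5 µg of total RNA each. The study asked how the extract influences gene expression in these cells. 12Z is an immortalised line, so each value comes from a population of cultured cells and not from a lesion. Nothing in the labels ties the libraries of a group to separate cultures, and p-values measure only how far these samples spread, which may be technical variation.

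Depth was 22454783 to 24531493 estimated counts in the Myrrh libraries and 22592816 to 27588151 in the DMSO libraries. Of the 8 epithelial markers 7 were tested, with a summed level of 1170 to 1280 TPM, transcript abundance per length, in Myrrh and 1610 to 1640 TPM in DMSO. KRT8 and KRT18 made up most of it, while the epithelial cadherin CDH1 had 13 counts over the Myrrh libraries and 14 over the DMSO libraries. EPCAM and KRT7 went against the sum. EPCAM averaged 2.54 TPM in Myrrh and 1.12 TPM in DMSO, and KRT7 8.91 and 5.84 TPM. The 7 stromal and mesenchymal markers, VIM and COL1A1 highest, summed to 1910 to 2040 TPM in Myrrh and 3920 to 4010 TPM in DMSO. The leukocyte marker CD3E and the endothelial marker CDH5 were at 0 in every library. CD68 accounted for most of the leukocyte markers' sum of 53.6 to 76.8 TPM in Myrrh and 30.3 to 34.1 TPM in DMSO. The other tested leukocyte markers went the other way. PTPRC had 5 counts over the Myrrh libraries and 46 over the DMSO libraries, and CD14 had 30 and 174. The 5 endothelial markers together stayed at 0.04 to 0.13 TPM in Myrrh and 0.1 to 0.27 TPM in DMSO. The labelled endometriotic origin could not be checked further with these lists, and the part of the marker shifts in the results below was not tested. The 13 mitochondrially encoded mRNAs held 4.22% to 5.17% of the counts in Myrrh and 13.1% to 13.8% in DMSO. This difference in composition bears on every value set between the groups, and results that turn with it are given with and without these mRNAs.

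Of the 8 genes, AIFM2, ACSL4 and NCOA4 rose in the Myrrh libraries, LPCAT3 and GPX4 fell, and GCH1, STEAP3 and CISD1 did not pass the test. Among the 5 that passed, the directions of NCOA4 and LPCAT3 are the less firm. LPCAT3 shares reads with EMG1, a gene that overlaps it and rose, and its direction rests on how those reads were split. Counted together, both genes had a log2 fold change of 0.36 (edgeR, adjusted p = 2.13e-07). This sum cannot show the direction of LPCAT3 alone. With library totals that leave out mitochondrially encoded mRNAs NCOA4 had -0.05 (edgeR, adjusted p = 0.382). GCH1, STEAP3 and CISD1 were called lower with those totals (-0.21, -0.23 and -0.40, edgeR, adjusted p = 0.00797, 0.00764 and 1.23e-05), so their results also depend on the scaling. Under those totals 2 of the 8 genes were called higher and 5 lower, against 26.8% and 52.3% of all genes tested. Calls are those of edgeR's two-sided quasi-likelihood test at an adjusted p below 0.05 (Benjamini-Hochberg, 16395 genes). Against the 5 of 8 called with TMM factors, 78.4% of all tested genes passed in either direction, 39.3% higher and 39.1% lower in Myrrh, so the share called among the 8 genes was not above that among all genes. The 3 libraries of each group did not overlap for 5 of the 8 genes, 3 higher and 2 lower, against 80.3% of all genes tested, 40.1% higher and 40.2% lower. The median log2 fold change of the 8 genes was 0.06, beside -0.02 over all genes tested. A change of at least 1 on the log2 scale was reached by AIFM2 and ACSL4, 2 of the 8, against 29.4% of all genes tested that passed with such a change.

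**Figure D1:**
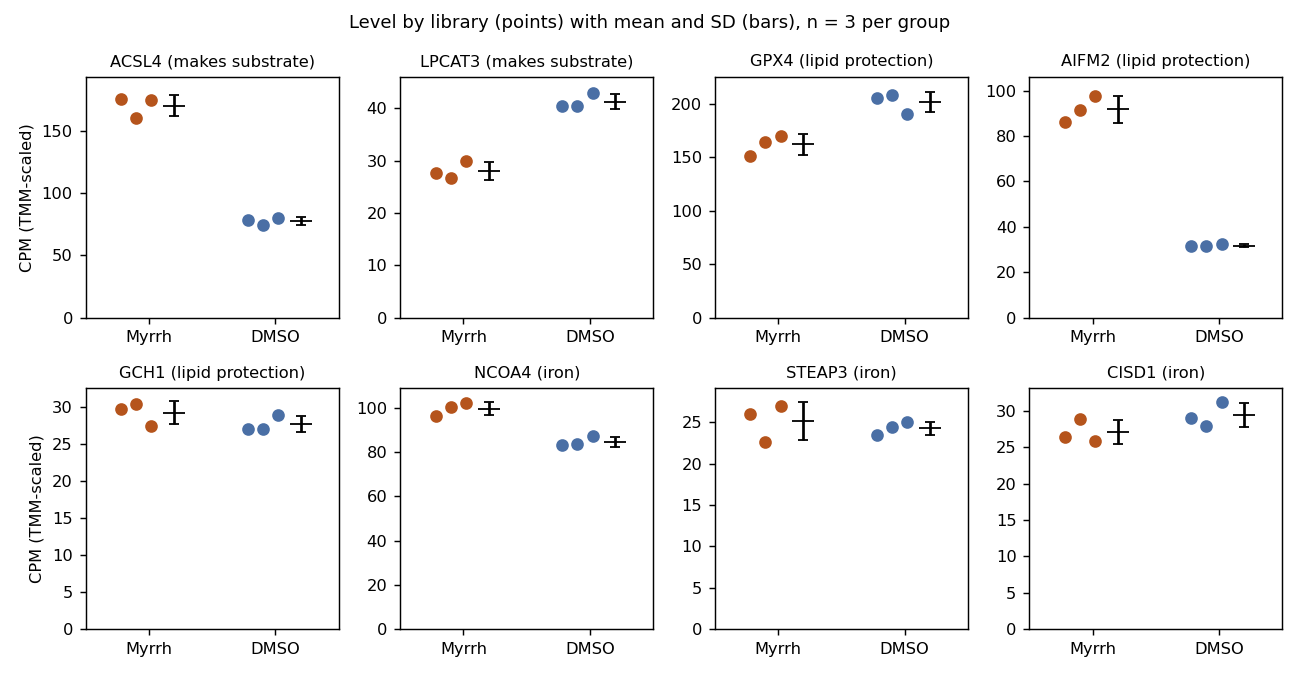
Level of each of the 8 genes by library, in CPM, counts relative to library size, scaled by TMM factors, with Myrrh on the left and DMSO on the right of each panel. Points are libraries, and the bars give the mean and SD of 3 libraries; ACSL4, AIFM2 and NCOA4 lie higher in all Myrrh libraries, LPCAT3 and GPX4 lower, and GCH1, STEAP3 and CISD1 overlap.

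ACSL4 joins long polyunsaturated fatty acids such as arachidonic acid to coenzyme A, the step that commits them to phospholipids. The gene lies on chromosome X at 109624244 to 109733403 (GRCh38, minus strand), and its longest annotated transcript has 17 exons. ACSL4 had 175.5, 160.4 and 174.7 CPM (counts relative to the TMM-scaled library size) in the Myrrh libraries, against 78.4, 74.1 and 80.0 CPM in the DMSO libraries. Every Myrrh library lay above every DMSO library, with a wide gap between the groups. ACSL4 rose by 1.14 ± 0.05 on the log2 scale (SE, n = 3 each), a 2.20-fold difference, with an adjusted p of 1.47e-16 in edgeR's quasi-likelihood test. Of all tested genes, 8.91% had a higher log2 fold change. In a bulk sample, a change in the RNA of each cell and a change in which cells are present cannot be told apart, here as for every gene below. ACSL4 shares 78 exonic bases, 1.22% of its own, with KCNE5 on the same strand, which had 12 to 32 counts in any library.

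The start of ACSL4 is printed because the gene was among the 2 that changed most. The sequence is RefSeq's (GRCh38.p14, chrX:109733208-109733507, minus strand), 250 bases before and 50 after the start, with TGACGTC, a part of the cyclic AMP response element, in capitals.

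ACSL4: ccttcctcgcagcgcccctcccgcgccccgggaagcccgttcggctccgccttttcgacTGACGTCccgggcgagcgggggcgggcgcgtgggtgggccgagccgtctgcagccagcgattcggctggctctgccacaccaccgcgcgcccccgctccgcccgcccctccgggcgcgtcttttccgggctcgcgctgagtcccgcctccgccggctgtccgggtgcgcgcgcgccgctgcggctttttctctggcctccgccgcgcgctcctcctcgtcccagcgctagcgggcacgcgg

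Searched on both strands, these letters lay 191 bases before the start of ACSL4 and occurred in 3.45% of the 35116 RefSeq windows of the same length. The same letters lay at a shared site of the overlapping pair of GPX4 windows, 99 and 162 bases before their starts. The RNA of GPX4 was lower in Myrrh. The full element TGACGTCA, among several motifs searched, was not in the ACSL4 window. A match is a description of letters and was not tested for any effect.

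ACSL4 did not move alone among the long-chain acyl-CoA synthetases. ACSL3, which activates mainly monounsaturated fatty acids and is counted as a brake on ferroptosis, averaged 111.9 ± 3.49 TPM in Myrrh and 58.1 ± 2.85 TPM in DMSO (SD, n = 3 each). It rose by 0.97 ± 0.06 on the log2 scale (edgeR, adjusted p = 9.5e-15). ACSL1, another member of the family, rose by 1.20 ± 0.08 (edgeR, adjusted p = 4.02e-13) at the lower level of 11.4 ± 0.117 TPM in Myrrh and 5.15 ± 0.5 TPM in DMSO. ACSL5 was tested at 0.28 ± 0.135 TPM in Myrrh and 0.203 ± 0.0907 TPM in DMSO, and its log2 fold change was 0.05 ± 0.44 (edgeR, adjusted p = 0.916). ACSL6 was too low to be tested. Within a library, where scaling between libraries cancels, the ratio of ACSL4 to ACSL3 in TPM was 0.478, 0.409 and 0.489 in Myrrh, against 0.374, 0.374 and 0.405 in DMSO. The groups were thus apart, but the lowest Myrrh library came close to the highest DMSO library.

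LPCAT3 inserts polyunsaturated acyl chains into lysophospholipids and so completes the substrate that ACSL4 begins. It lies on chromosome 12 at 6976186 to 7018510 (GRCh38, minus strand), with 11 exons in its longest transcript. LPCAT3 had 27.5, 26.7 and 30.0 CPM in Myrrh, against 40.4, 40.5 and 42.9 CPM in DMSO. All Myrrh libraries were lower. On its own counts LPCAT3 fell by 0.56 ± 0.06 on the log2 scale (SE, n = 3 each; edgeR, adjusted p = 1.3e-08).

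The reads behind LPCAT3 are shared with another gene. EMG1, which modifies ribosomal RNA, lies on the opposite strand and covers 3100 exonic bases of LPCAT3, 65.6% of them. The estimated counts of LPCAT3 were not whole numbers in 6 of 6 libraries, while the sum of LPCAT3 and EMG1 was whole within 0.01 in 5 of 6. LPCAT3 took 26.5%, 25.0% and 27.5% of this sum in Myrrh, against 48.7%, 50.1% and 50.7% in DMSO. EMG1 rose by 0.92 ± 0.05 on the log2 scale (edgeR, adjusted p = 2.42e-14), at 78.6 ± 1.89 CPM in Myrrh and 41.6 ± 1.15 CPM in DMSO. The sum of both genes averaged 106.6 ± 2.61 CPM in Myrrh and 82.9 ± 1.89 CPM in DMSO, a log2 fold change of 0.36 ± 0.05 (edgeR, adjusted p = 2.13e-07). The sum was thus higher in Myrrh while the share assigned to LPCAT3 was lower. Because EMG1 is part of the sum and rose, the sum cannot show the direction of LPCAT3 alone. The sources used here do not give the strand setting of the counting, and the direction of LPCAT3 rests on how the reads were split and is uncertain.

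**Figure D2:**
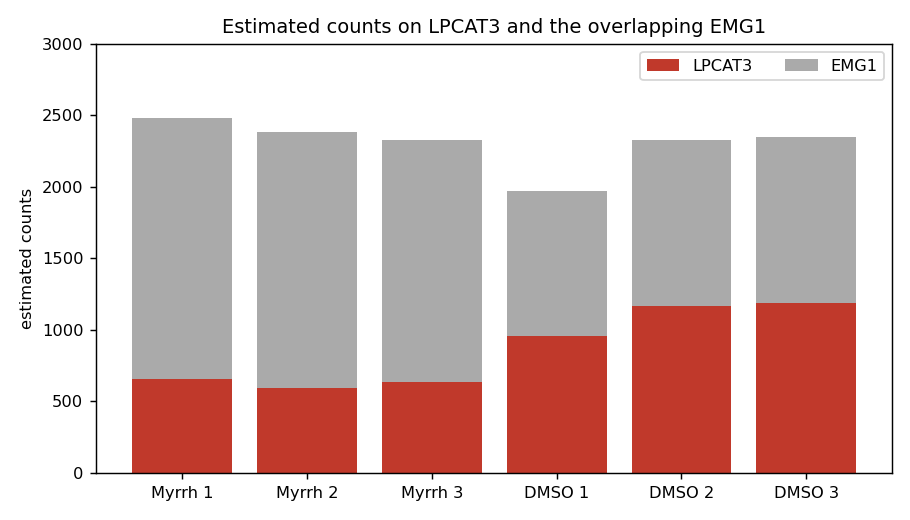
Estimated counts assigned to LPCAT3 (red) and to EMG1 (grey), which overlaps it on the opposite strand, stacked for each of the 3 Myrrh and 3 DMSO libraries. The stacks reach 2325 to 2480 counts in Myrrh and 1973 to 2348 in DMSO, and the red share is smaller in every Myrrh library.

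Among the other lysophospholipid acyltransferases, 1 rose and 4 fell of 6 tested. LPCAT4, an acyltransferase of lysophosphatidylethanolamine, fell by 2.06 ± 0.06 (edgeR, adjusted p = 1.54e-20), to 28.6 ± 2.57 TPM in Myrrh, against 122.3 ± 2.6 TPM in DMSO. LPCAT1, which makes saturated phosphatidylcholine, fell by 0.95 ± 0.05 and LPCAT2 by 0.48 ± 0.07, although the call of LPCAT2 was lost on the log2(TPM + 1) scale (limma, -0.22, adjusted p = 0.0994). MBOAT1, which favours monounsaturated chains, fell by 1.41 ± 0.11 at 1.55 ± 0.301 TPM in Myrrh and 4.02 ± 0.214 TPM in DMSO. MBOAT7, which adds arachidonic acid to lysophosphatidylinositol, rose by 0.88 ± 0.05, with 206.6 ± 6.73 TPM in Myrrh and 115.3 ± 3.36 TPM in DMSO. MBOAT2 had a log2 fold change of 0.13 ± 0.06 and did not pass (edgeR, adjusted p = 0.0642). It was called higher on the log2(TPM + 1) scale (limma, 0.54, adjusted p = 0.00136) and without Myrrh replicate 3 or DMSO replicate 3 (edgeR, adjusted p = 0.0136 and 0.0256). With totals that leave out mitochondrially encoded mRNAs it was called lower (edgeR, -0.15, adjusted p = 0.0392), so its direction is uncertain.

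GPX4 is the selenium-containing peroxidase that reduces phospholipid hydroperoxides with glutathione, and its loss or inhibition is the standard trigger of ferroptosis. The gene is on chromosome 19 at 1103926 to 1106791 (GRCh38, plus strand), with 5 exons in its longest transcript. Its active site is a selenocysteine, written in the mRNA by a TGA codon that elsewhere ends translation. The codon is shown with 21 bases on either side, from the annotated transcripts of GENCODE release 29, in GPX4 (chr19:1105403-1105405, plus strand) and in its relative GPX1 (chr3:49358132-49358134, minus strand), with TGA in capitals.

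GPX4: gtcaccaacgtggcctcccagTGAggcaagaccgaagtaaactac

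GPX1: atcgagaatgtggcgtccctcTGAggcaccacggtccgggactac

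The 45 bases around the codon were identical at 28 positions, or 62.2%. GPX4 had 151.8, 164.9 and 170.5 CPM in Myrrh, against 206.2, 208.7 and 190.8 CPM in DMSO. All Myrrh libraries were lower, by less than the gap seen for ACSL4. GPX4 fell by 0.31 ± 0.06 on the log2 scale, or to 0.804 of the DMSO level (SE, n = 3 each; edgeR, adjusted p = 1.58e-05). Its transcript stayed abundant at 356.8 ± 17 TPM in Myrrh and 426.8 ± 8.42 TPM in DMSO, and only 2.09% of tested genes in Myrrh and 1.54% in DMSO had a higher TPM. Of all tested genes, 72.2% had a larger absolute change.

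The 3 other glutathione peroxidases that were tested also fell. GPX1, the abundant peroxidase of the cytosol, fell by 0.40 ± 0.06 (edgeR, adjusted p = 7.57e-07), with 325.2 ± 17.8 TPM in Myrrh and 416.6 ± 7.53 TPM in DMSO. GPX8 of the endoplasmic reticulum fell by 0.23 ± 0.05 (edgeR, adjusted p = 0.000382), a call lost on the log2(TPM + 1) scale (limma, -0.16, adjusted p = 0.0541). GPX7 of the same compartment fell by 0.17 ± 0.08 (edgeR, adjusted p = 0.0403), but no longer passed in DESeq2 (adjusted p = 0.0942), without Myrrh replicate 1 or 3 (0.124 and 0.175) or without DMSO replicate 2 or 3 (0.0772 and 0.17). GPX5 and GPX6 were at 0 in every library, and GPX2 and GPX3 were too low to be tested. The ratio of GPX4 to GPX1 in TPM was 1.137, 1.06 and 1.097 in Myrrh, against 1.062, 1.01 and 1.003 in DMSO, so the pair kept near-equal levels in every library.

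AIFM2, also called FSP1, is a reductase that regenerates ubiquinol and reduced vitamin K at membranes and halts lipid radicals without glutathione. It lies on chromosome 10 at 70098223 to 70132934 (GRCh38, minus strand), with 9 exons in its longest transcript. AIFM2 had 86.0, 91.6 and 97.6 CPM in Myrrh, against 31.3, 31.3 and 32.5 CPM in DMSO. The DMSO libraries lay close together, far under the lowest Myrrh library. AIFM2 rose by 1.53 ± 0.06 on the log2 scale, a 2.89-fold difference (SE, n = 3 each; edgeR, adjusted p = 2.81e-18), and 4.29% of tested genes had a higher log2 fold change. It shares 11 exonic bases with H2AFY2 on the opposite strand, 0.214% of its own. AIFM2 counts were not whole in 4 libraries, while the sum with H2AFY2 was whole within 0.01 in 6 of 6. H2AFY2 had 479 to 530 counts in Myrrh and 528 to 626 in DMSO, and the sum was 2549 to 2581 counts in Myrrh and 1272 to 1528 in DMSO, so the sum too was higher in every Myrrh library. AIFM2 took 79.5% to 81.2% of it in Myrrh and 58.5% to 60.7% in DMSO.

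The ratio of AIFM2 to GPX4 in TPM was 0.124, 0.125 and 0.129 in Myrrh, against 0.0370, 0.0353 and 0.0376 in DMSO. The libraries of each group lay close together and the groups far apart. GPX4 remained several times as abundant as AIFM2 in every library. Within the family, AIFM1, a mitochondrial flavoprotein that can take part in cell death, rose by 0.53 ± 0.05 (edgeR, adjusted p = 1.18e-09). AIFM3 fell by 1.89 ± 0.22 (edgeR, adjusted p = 2.17e-08), at 0.897 ± 0.18 TPM in Myrrh and 3.42 ± 0.216 TPM in DMSO.

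The start of AIFM2, the gene with the largest change of the 8, is printed from RefSeq (GRCh38.p14, chr10:70132776-70133075, minus strand), 250 bases before and 50 after the start. In capitals is a stretch that reads, on the opposite strand, as the antioxidant response element core TGACNNNGC and overlaps the AP-1 site TGANTCA.

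AIFM2: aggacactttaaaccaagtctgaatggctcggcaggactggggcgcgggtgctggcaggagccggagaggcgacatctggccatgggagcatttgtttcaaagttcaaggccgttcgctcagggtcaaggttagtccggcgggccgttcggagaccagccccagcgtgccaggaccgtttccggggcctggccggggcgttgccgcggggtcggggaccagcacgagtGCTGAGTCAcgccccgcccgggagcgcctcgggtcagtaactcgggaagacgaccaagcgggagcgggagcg

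The stretch began 22 bases before the start, and the AP-1 letters within it 20 bases before. Searched on both strands, the antioxidant core was in 13.3% and the AP-1 site in 7.71% of the 35116 RefSeq windows. Among the 10 windows that 7 of the 8 genes have in the RefSeq table, the antioxidant core also lay in an NCOA4 window, 23 bases after its start, and the AP-1 site in another NCOA4 window. NFE2L2, a factor known to bind the antioxidant element, rose by 1.29 ± 0.05 in RNA (edgeR, adjusted p = 1.89e-17). BACH1, a repressor that binds the same element, rose by 0.95 ± 0.05 (edgeR, adjusted p = 1.14e-14). Binding was not measured, and the matches are letters only.

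GCH1 carries out the rate-limiting step in the synthesis of tetrahydrobiopterin, a cofactor that also traps lipid radicals. GCH1 is annotated on chromosome 14 at 54842008 to 54902852 (GRCh38, minus strand), with 6 exons in its longest transcript. GCH1 had 29.7, 30.4 and 27.4 CPM in Myrrh, against 27.1, 27.1 and 28.9 CPM in DMSO. The groups overlapped. Its log2 fold change was 0.08 ± 0.07 with an approximate 95% interval of -0.05 to 0.21 (edgeR, adjusted p = 0.291), so the test found no difference and the interval leaves room for a small one.

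The enzymes around GCH1 moved more than GCH1 did, each by its own test, though the difference between them was not tested. Of 5 other genes of tetrahydrobiopterin synthesis and recycling, 4 rose and 1 fell. SPR, sepiapterin reductase, which makes the final product, rose by 1.48 ± 0.06 (edgeR, adjusted p = 2.82e-18), to 88.9 ± 4.12 TPM in Myrrh, against 31.0 ± 1.6 TPM in DMSO. The recycling enzymes QDPR and PCBD1 rose by 0.80 ± 0.06 and 0.62 ± 0.07 (edgeR, adjusted p = 1.26e-11 and 1.35e-08). PTS, the enzyme after GCH1, rose by 0.26 ± 0.08, but this was lost with library totals (0.11, edgeR, adjusted p = 0.19) and turned to -0.03 with totals that leave out mitochondrially encoded mRNAs. GCHFR, the protein that binds GCH1 and mediates its feedback inhibition, fell by 1.18 ± 0.16 (edgeR, adjusted p = 1.4e-07). The ratio of GCH1 to GCHFR in TPM was 3.20, 2.31 and 2.31 in Myrrh, against 1.09, 0.947 and 1.07 in DMSO, with every Myrrh library above every DMSO library.

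**Figure D3:**
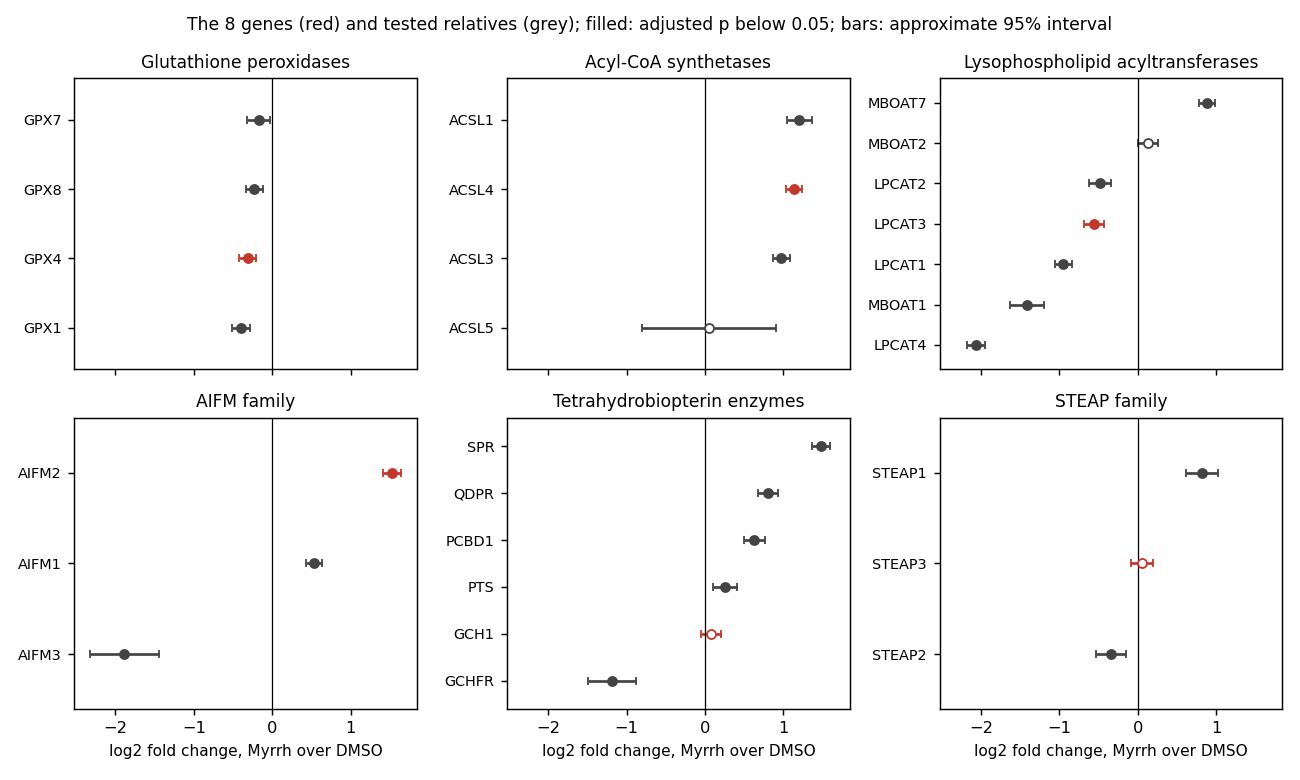
Log2 fold changes, Myrrh over DMSO, of 6 of the 8 genes (red) and their tested relatives (grey), by family; bars are approximate 95% intervals and filled points have an adjusted p below 0.05 in edgeR. The glutathione peroxidases lie left of 0, 3 of 4 acyl-CoA synthetases lie near 1, and GCH1 and STEAP3 lie near 0 between relatives on either side.

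NCOA4 is the receptor that carries ferritin to the lysosome, where its iron is set free. It lies on chromosome 10 at 46005088 to 46030714 (GRCh38, minus strand), with 10 exons in its longest transcript. NCOA4 had 96.6, 100.6 and 102.2 CPM in Myrrh, against 83.3, 83.7 and 87.3 CPM in DMSO. All Myrrh libraries were higher, by a small step. NCOA4 rose by 0.24 ± 0.05 on the log2 scale (SE, n = 3 each; edgeR, adjusted p = 0.00013). The direction rests on the scaling: the log2 fold change was 0.09 with library totals (edgeR, adjusted p = 0.101) and -0.05 with totals that leave out mitochondrially encoded mRNAs (edgeR, adjusted p = 0.382). In TPM rescaled without those mRNAs, NCOA4 had 44.0 ± 1.52 in Myrrh and 44.2 ± 1.7 in DMSO. Of the processed copies of NCOA4 and CISD1 that share their symbol, NCOA4P2 had 1 count in each of 2 Myrrh libraries and the others had 0.

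The RNA of a chain of ferritin, the cargo of NCOA4, changed far more, while ferritin protein was not measured. FTH1, the ferritin heavy chain, rose by 1.49 ± 0.05 (edgeR, adjusted p = 7.83e-19), to 16080 ± 667 TPM in Myrrh, against 5519 ± 156 TPM in DMSO. The ratio of NCOA4 to FTH1 in TPM was 0.00246, 0.00245 and 0.00244 in Myrrh, against 0.00585, 0.00588 and 0.00601 in DMSO, nearly the same in every library of a group. Of the 6 other nuclear receptor coactivators, whose symbols NCOA4 shares but whose role in ferritin turnover it does not, 4 rose and 2 fell. NCOA6 was among the 4 (0.14, edgeR, adjusted p = 0.0385), but it passed in the other direction on the log2(TPM + 1) scale (limma, -0.16, adjusted p = 0.0481) and with totals that leave out mitochondrially encoded mRNAs (edgeR, -0.14, adjusted p = 0.0498). Its call was also lost in DESeq2 (adjusted p = 0.0769) and without Myrrh replicate 1 or 3 or DMSO replicate 1 or 2 (adjusted p = 0.152, 0.0917, 0.212 and 0.0864), so its direction is uncertain. NCOA1 rose by 0.52 ± 0.06 and NCOA5 fell by 0.68 ± 0.07 (edgeR, adjusted p = 1.45e-08 and 2.13e-09).

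STEAP3 reduces ferric iron in the endosome so that it can leave for the cytosol. STEAP3 is annotated on chromosome 2 at 119223831 to 119265652 (GRCh38, plus strand), with 6 exons in its longest transcript. STEAP3 had 26.0, 22.6 and 26.9 CPM in Myrrh, against 23.4, 24.5 and 25.0 CPM in DMSO. The groups overlapped, with Myrrh replicate 2 the lowest of all libraries. Its log2 fold change was 0.05 ± 0.07 with an approximate 95% interval of -0.09 to 0.19 (edgeR, adjusted p = 0.534). STEAP3-AS1, on the opposite strand, shares 500 exonic bases, 11.0% of those of STEAP3, but had only 1.07 to 10.4 counts in any library. STEAP1 rose by 0.82 ± 0.10 and STEAP2 fell by 0.34 ± 0.10 (edgeR, adjusted p = 7.87e-08 and 0.00296), while STEAP4 was at 0 in every library.

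CISD1, or mitoNEET, holds an iron-sulfur cluster on the outer mitochondrial membrane and limits mitochondrial iron uptake. It lies on chromosome 10 at 58269058 to 58289586 (GRCh38, plus strand), with 3 exons in its longest transcript. CISD1 had 26.5, 28.95 and 25.8 CPM in Myrrh, against 29.04, 28 and 31.3 CPM in DMSO. The groups overlapped through Myrrh replicate 2. Its log2 fold change was -0.12 ± 0.07 with an approximate 95% interval of -0.25 to 0.02 (edgeR, adjusted p = 0.113). It was lower past the threshold without Myrrh replicate 2 (-0.17, adjusted p = 0.0345), with library totals (-0.26, adjusted p = 0.00158) and with totals that leave out mitochondrially encoded mRNAs (-0.40, adjusted p = 1.23e-05), all in edgeR. CISD2, its relative on the endoplasmic reticulum, rose by 0.58 ± 0.06 (edgeR, adjusted p = 2.33e-09). CISD3, the relative inside mitochondria, had a log2 fold change of 0.13 ± 0.07 and did not pass (edgeR, adjusted p = 0.0691). It was called higher on the log2(TPM + 1) scale (limma, 0.22, adjusted p = 0.0308) and without Myrrh replicate 1 (edgeR, 0.17, adjusted p = 0.0382). With totals without mitochondrially encoded mRNAs it was called lower (edgeR, -0.15, adjusted p = 0.0421).

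**Figure D4:**
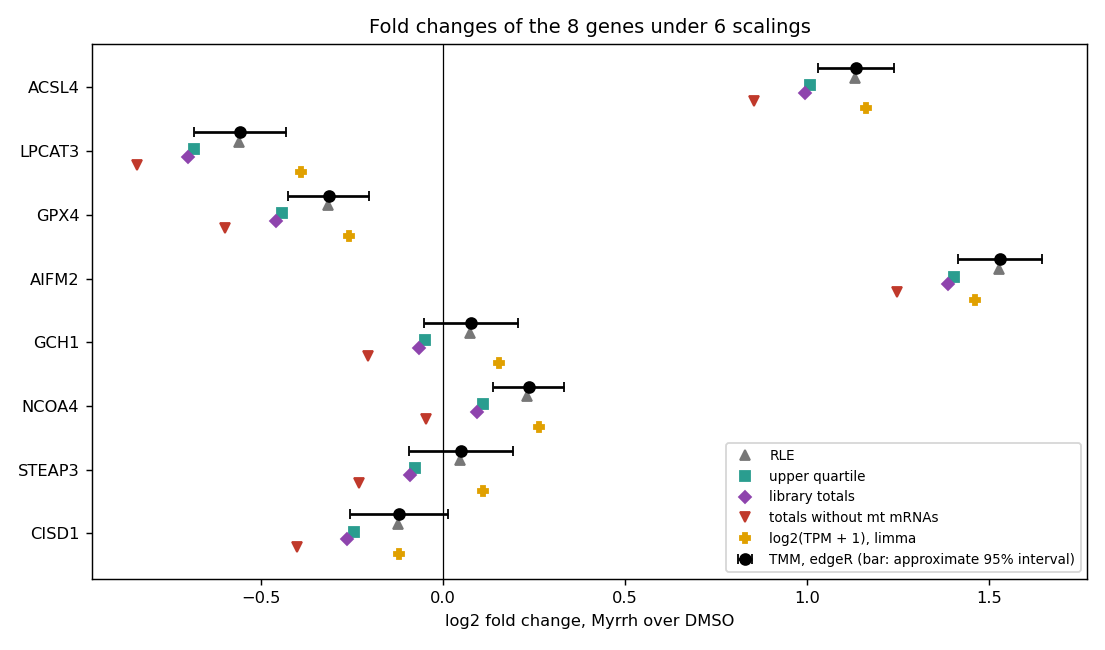
Log2 fold change, Myrrh over DMSO, of each of the 8 genes under TMM (black, bar of an approximate 95% interval) and 5 other scalings of the libraries. ACSL4, AIFM2, GPX4 and LPCAT3 stay on one side of 0 in all 6, as do the points of CISD1, whose TMM interval includes 0. NCOA4 crosses 0 when mitochondrially encoded mRNAs are left out of the totals, and GCH1 and STEAP3 cross it with library totals and upper-quartile factors too.

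Scaling moved all genes together and so decided the small changes. The median log2 fold change of all tested genes was -0.02 with TMM factors, -0.16 with library totals and -0.30 with totals that leave out mitochondrially encoded mRNAs. Of all calls, 50.1% were higher in Myrrh with TMM factors, against 33.9% with the last scaling and 37.2% with TPM rescaled in the same way. Under totals without these mRNAs, GCH1 was lower by a log2 fold change of -0.21 (adjusted p = 0.00797) and STEAP3 by -0.23 (adjusted p = 0.00764), both smaller than the shift of -0.30 in the median of all genes. GPX4 kept its fall there (-0.60), as ACSL4 and AIFM2 kept their rise (0.85 and 1.248).

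Per length, and within each group, the 8 genes covered a wide range of levels. GPX4 was highest in both groups, at 344.4 to 376.2 TPM in Myrrh and 417.7 to 434.3 TPM in DMSO, and CISD1 was next, at 58.7 to 61.2 TPM in Myrrh and 60.4 to 74.1 TPM in DMSO. In Myrrh, ACSL4 (51.2 ± 3.89 TPM) and AIFM2 (44.9 ± 3.19 TPM) followed and overlapped each other, then came NCOA4 (39.4 ± 1.53 TPM), LPCAT3 (22.6 ± 2.7 TPM), GCH1 (15.7 ± 1.08 TPM) and STEAP3 (9.003 ± 1.36 TPM), each apart from its neighbours. In DMSO the order after CISD1 was NCOA4 (32.6 ± 1.37 TPM) and LPCAT3 (29.9 ± 1.75 TPM), which overlapped, then ACSL4 (22.4 ± 1.8 TPM), AIFM2 (15.6 ± 0.476 TPM), GCH1 (13.95 ± 0.74 TPM) and STEAP3 (8.21 ± 0.369 TPM). ACSL4 and AIFM2 thus stood above NCOA4 and LPCAT3 in Myrrh and below them in DMSO. Mitochondrially encoded mRNAs took 96300 to 112000 TPM in Myrrh and 258000 to 262000 TPM in DMSO, so the order is read within a group. TPM printed for both groups, here and elsewhere, carries this difference. In TPM rescaled without these mRNAs, GPX4 had 398.7 ± 19.3 in Myrrh and 577.9 ± 13.3 in DMSO. Fold changes rest on counts unless limma is named.

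The effective length that the deposited counts and TPM imply also differed a little for some genes. Relative to all genes of the same library, the mean log2 shift, Myrrh minus DMSO, was -0.09 for LPCAT3, 0.07 for AIFM2 and 0.03 for NCOA4. A larger absolute shift was found in 38.7%, 43.6% and 68.6% of genes, in that order. The median absolute shift over 11006 genes with at least 100 counts in every library was 0.06, so these shifts are of ordinary size. The shift was 0.07 for CISD1, -0.03 for GCH1, -0.01 for STEAP3, 0.008 for GPX4 and 0.001 for ACSL4.

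Among 128 tested genes of the related lists, the pattern most like each gene over the 6 libraries was taken as the smallest root mean square difference of log2 CPM around each gene's own mean. AIFM2 was nearest to FTH1 (0.0364), ACSL4 to SARS1 (0.0616), a tRNA ligase for serine, and GPX4 to the lipid synthesis factor SREBF1 (0.0556). LPCAT3 was nearest to ELOVL2 (0.0524), NCOA4 to STARD7 (0.0382), GCH1 to MBOAT2 (0.0437), STEAP3 to NCOA6 (0.0526) and CISD1 to GPX7 (0.0495). With 2 groups of 3 libraries, likeness mostly reads the size of the group difference.

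The wider pathway was read from 16 lists of genes, 146 beside the 8. Of these, 145 had a row and 128 were tested, and 71 rose and 35 fell, against 39.3% and 39.1% of all tested genes. Under totals that leave out mitochondrially encoded mRNAs, 56 of them were called higher and 55 lower, against 26.8% and 52.3% of all genes tested.

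**Figure D5:**
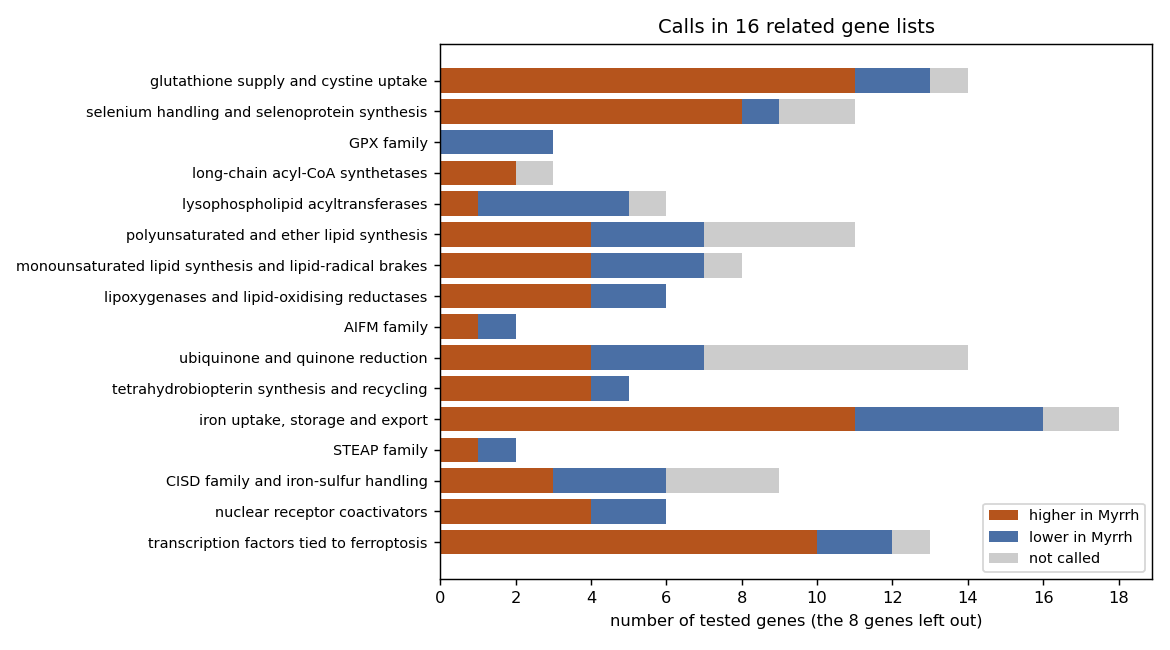
Number of tested genes in each of 16 related lists, the 8 genes left out, that were higher in Myrrh (brown), lower in Myrrh (blue) or not called (grey) in edgeR at an adjusted p below 0.05. Higher and lower genes number 11 and 2 in glutathione supply, 10 and 2 among the transcription factors and 8 and 1 in selenium handling. The 11 include CHAC1 and CHAC2, which break down glutathione. The 3 tested glutathione peroxidases other than GPX4 are lower.

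Of 14 tested genes of glutathione supply and cystine uptake, 11 rose and 2 fell, with a median log2 fold change of 0.82. The 11 include CHAC1 and CHAC2, which break down glutathione and rose by 2.42 ± 0.08 and 1.63 ± 0.13 (edgeR, adjusted p = 1.3e-19 and 1.41e-11). The thioredoxin reductase TXNRD1 is also among them. SLC3A2, the heavy chain of the cystine and other amino acid transporters, rose by 4.25 ± 0.06 and CTH, which makes cysteine from cystathionine, by 2.55 ± 0.08 (edgeR, adjusted p = 8.58e-27 and 3.05e-20). SLC7A11, the light chain of the cystine transporter, rose by only 0.37 ± 0.05 (edgeR, adjusted p = 6.24e-07). GGT1, which cleaves glutathione outside the cell, fell by 0.88 ± 0.21 (edgeR, adjusted p = 0.000384), which was lost on the log2(TPM + 1) scale (limma, adjusted p = 0.208). CBS fell by 0.26 ± 0.10 (edgeR, adjusted p = 0.0306), a call lost without Myrrh replicate 1, 2 or 3 (adjusted p = 0.0918, 0.0742 and 0.131). Of 11 tested genes of selenium handling, which GPX4 needs for its selenocysteine, 8 rose and 1 fell. SEPHS2, which makes selenophosphate, rose by 1.44 ± 0.06 and SARS1, which charges the selenocysteine tRNA with serine, by 1.15 ± 0.06 (edgeR, adjusted p = 2.45e-18 and 5.92e-16). SEPHS1 fell by 0.40 ± 0.06 in counts (edgeR, adjusted p = 9.47e-07), a call lost on the log2(TPM + 1) scale (limma, -0.02, adjusted p = 0.854).

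On the substrate side, 4 of 11 tested genes of polyunsaturated and ether lipid synthesis rose and 3 fell. The desaturase FADS1 and the elongase ELOVL5 rose by 0.84 ± 0.06 and 0.78 ± 0.05, and the elongase ELOVL2 and the ether lipid enzyme GNPAT fell by 0.58 ± 0.06 and 0.35 ± 0.05. Of 8 tested genes of monounsaturated lipid synthesis and lipid-radical brakes, 4 rose and 3 fell. The sterol enzymes DHCR7 and SC5D rose by 2.03 ± 0.08 and 1.63 ± 0.07 (edgeR, adjusted p = 5.44e-14 and 2.33e-17), and the phospholipase PLA2G6 fell by 1.34 ± 0.13 (edgeR, adjusted p = 9.24e-10). DHCR7 uses up a sterol precursor that traps lipid radicals, and SC5D makes that precursor.

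Of 6 tested lipoxygenases and lipid-oxidising reductases, 4 rose and 2 fell. POR, the cytochrome P450 reductase that can feed lipid oxidation, rose by 2.33 ± 0.06 (edgeR, adjusted p = 1.75e-22), to 199.8 ± 9.7 TPM in Myrrh, against 44.2 ± 2.91 TPM in DMSO. ALOXE3, an epidermal lipoxygenase, had 238 counts over the Myrrh libraries and 4 over the DMSO libraries, a ratio of 70.8 per scaled library size with an exact binomial 95% interval of 27.3 to 262 that covers counting error only. PEBP1, a partner of lipoxygenases, fell by 0.21 ± 0.05 (edgeR, adjusted p = 0.000508). ALOX12 fell by 0.98 ± 0.40 (edgeR, adjusted p = 0.028) at under 1 CPM, and its call was lost without Myrrh replicate 2 or without DMSO replicate 1 or 3 (adjusted p = 0.146, 0.0519 and 0.15). Of 14 tested genes of ubiquinone synthesis and quinone reduction, which supply the substrate of AIFM2, 4 rose, 3 fell and 7 did not pass. COQ5 rose by 0.43 ± 0.06 and PDSS2 by 0.44 ± 0.09, the call of PDSS2 being lost with totals that leave out mitochondrially encoded mRNAs (0.16, edgeR, adjusted p = 0.123), and COQ4 and COQ8A fell by 0.73 ± 0.06 and 0.63 ± 0.07.

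Of 18 tested genes of iron uptake, storage and export, 11 rose and 5 fell. HMOX1, which frees iron from heme, rose by 6.78 ± 0.07 (edgeR, adjusted p = 9.04e-30), to 5688 ± 163 TPM in Myrrh, against 49.9 ± 0.975 TPM in DMSO. TFRC, the transferrin receptor that delivers the iron STEAP3 reduces, rose by 1.66 ± 0.10 (edgeR, adjusted p = 4.98e-07). The importer SLC39A8 fell by 1.005 ± 0.07 and the exporter SLC40A1 by 0.50 ± 0.09 (edgeR, adjusted p = 5.41e-13 and 2.15e-05). Of 9 tested genes of iron-sulfur handling, 3 rose, CISD2 among them, and 3 fell. The ferredoxins FDX1 and FDX2 rose by 0.93 ± 0.08 and 0.71 ± 0.08, and the mitochondrial iron carriers SLC25A37 and SLC25A28 fell by 1.17 ± 0.06 and 0.44 ± 0.07. Of 13 transcription factors tied to ferroptosis, 10 rose and 2 fell. ATF3, a stress-induced factor, rose by 4.65 ± 0.07 (edgeR, adjusted p = 3.88e-26), while SP1 and SREBF1 fell by 0.58 ± 0.06 and 0.33 ± 0.05 (edgeR, adjusted p = 1.32e-09 and 1.29e-06).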

How the data were processed

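RNA sequencing libraries were made with a TruSeq RNA kit, per the labels' protocols. The submitters' processing notes name STAR, RSEM 1.3.1 and GRCh38; the sources used here do not give the annotation release, strand setting or trimming. The authors deposited estimated counts per gene from RSEM, in which 29.7% to 30.3% of values above 0 were not whole because reads matching several genes are split. A second deposited table holds log2(TPM + 1), which was undone to TPM (sums of 999429 to 999560 per library). Groups came from the sample titles.

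Estimated counts were rounded, filtered with filterByExpr and scaled with TMM factors (0.933 to 0.973 in Myrrh, 1.05 in DMSO). All 16395 genes were tested over 6 libraries with edgeR 4.0.16 in R 4.3.3 (quasi-likelihood, robust, no block; Benjamini-Hochberg threshold 0.05). SE is the absolute log2 fold change over the square root of F, and intervals are 1.96 SE. limma 3.58.1 and DESeq2 1.42.0 served as alternatives. The log2 CPM used for likeness and for correlations between libraries had a prior count of 2. Within a group, chi-square per degree of freedom was 3.84 to 9, above sampling noise. The depth limits the precision of genes with few counts, and intervals on counts cover counting error only. Positions came from GENCODE release 29.

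The 8 genes and the lists were chosen with earlier results of these data known, so their counts are descriptions. From each list, up to 2 called genes with the highest and 2 with the lowest log2 fold change were named. All tested relatives of a family described gene by gene were named too. EMG1, KCNE5, H2AFY2 and STEAP3-AS1 were named after their values were seen, as were BACH1, CHAC1, CHAC2, SLC7A11 and TXNRD1 from the lists. A few listed genes are not reported here and are left out of the counts.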

Additional observations from a re-analysis of the deposited data

How the results depend on the processing

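ACSL4, AIFM2 and GPX4 kept direction and call under each of 18 alternatives (log2 fold changes of 0.85 to 1.19, 1.20 to 1.58 and -0.60 to -0.26), and LPCAT3 under 18 of 19. The remaining one was the sum of LPCAT3 and EMG1 (0.36), which holds the counts of EMG1 too and cannot show the direction of LPCAT3 alone. That sum and the scalings that leave out mitochondrially encoded mRNAs were chosen after seeing the data. With library totals of this kind, 2 of the 8 genes were called higher and 5 lower (3 and 2 with TMM factors), 56 list genes higher and 55 lower (71 and 35), and 26.8% of all genes higher and 52.3% lower (39.3% and 39.1%); GCH1 was -0.21, NCOA4 -0.0476, STEAP3 -0.23, MBOAT2 -0.15, STARD7 -0.10, NCOA6 -0.14, PTS -0.0277 and CISD3 -0.15. With TPM rescaled likewise (limma), NCOA4 was -0.00572, STARD7 -0.0919, PTS -0.0587 and NCOA6 -0.42. With library totals NCOA6 was -0.000782. On log2(TPM + 1) and log2(TPM + 0.1), NCOA6 was -0.16 and -0.16. The causes were not tested.

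Leaving out each library in turn gave 3 of the 8 genes called higher each time and 2 to 3 lower, and 67 to 71 list genes higher and 32 to 34 lower. Of all genes, 12362 to 12893 were called, 37.3% to 38.1% of those tested higher and 37.2% to 38.6% lower. The labels do not say that the replicate numbers pair the libraries. Deviations of same-numbered libraries correlated at -0.06, -0.00454 and 0.04, against -0.09 to 0.10 for other pairs. With 3 libraries per group this cannot settle whether they were paired. With the replicate block, 3 of the 8 genes were called higher and 2 lower, with 71 and 35 list genes and no changed call among the 8 genes. Of all genes 12782 were called, 39% of those tested higher and 39% lower. Genes with few counts, such as ALOX12, are limited by depth.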
